A study of Mus musculus with 48 samples.

Results

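The 10 genes described here, Hk2, Gpi1, Pfkp, Aldoa, Tpi1, Pgk1, Pgam1, Eno1, Ldha and Pdk1, encode enzymes of glycolysis, the enzyme that turns its end product into lactate, and a kinase that gates the entry of pyruvate into mitochondria. They were taken by symbol from a table of 55401 genes, and all 10 were counted in every mouse. The table holds read counts from colon tissue of 48 adult male C57BL/6J mice, with 4 mice of each genotype at CT1, CT5, CT9, CT13, CT17 and CT21, where CT is circadian time in hours. Bmal1iec-/- mice carry the floxed clock gene Bmal1 on both alleles together with Villin-Cre, so that Bmal1 is deleted in intestinal epithelial cells, and their control littermates carry the same floxed alleles without Cre. All mice were kept singly with a running wheel and free access to chow and were killed on the second day of constant darkness. Since the Villin promoter drives Cre in the epithelium and whole colon was sequenced, transcripts of muscle, stroma and immune cells, in which Bmal1 is intact, are counted together with those of the epithelium.

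Glycolysis splits glucose into pyruvate in the cytosol and yields ATP without oxygen. Colon epithelium takes much of its energy from butyrate and other short-chain fatty acids and lies in a region of low oxygen, where the hypoxia-inducible factor HIF-1 is known to raise transcripts of many glycolytic enzymes. The clock protein BMAL1 and the HIF-1 subunits belong to the same family of transcription factors and bind similar short DNA motifs.

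By their order in the pathway, Hk2 (chr6:82725025-82774454, GRCm38) encodes a hexokinase, which traps glucose in the cell as glucose 6-phosphate. Gpi1 (chr7:34201330-34230336) encodes the isomerase of the next step, and Pfkp (chr13:6579768-6648777) the platelet-type subunit of phosphofructokinase, the committed and most regulated step. Aldoa (chr7:126795234-126800751) encodes the aldolase that cuts the sugar, and Tpi1 (chr6:124810586-124814296) interconverts both products. Pgk1 (chrX:106187100-106203699) encodes the kinase of the first ATP-forming step, Pgam1 (chr19:41911923-41918660) a mutase and Eno1 (chr4:150236721-150248879) an enolase. Ldha (chr7:46841475-46855627) encodes the main lactate dehydrogenase subunit, and Pdk1 (chr2:71873224-71903858) a kinase that switches off the pyruvate dehydrogenase complex. Counts per mouse ran from 136 for Pdk1 to 5274 for Ldha. Exons of Gpi1, Pfkp, Aldoa and Tpi1 overlap a gene on the other strand, and whether strand was used in counting is not given in the sources used here. The authors counted only reads in exons free of overlap with further features. If strand was not used, reads of the shared stretches could thus be missing from the counts of these genes.

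The promoters of 3 genes whose transcripts the results turn on are shown by the short motifs in them. Windows from 250 bases before to 50 bases after each RefSeq start (GRCm38.p6) were found for all 10 genes, 16 windows in all, and searched on both strands for CACGTG, the E-box bound by CLOCK and BMAL1, and for ACGTG and GCGTG, the cores of hypoxia response elements. CACGTG was found in 1 of the 16 windows, of Ldha, and in 7.15% of 32851 promoter windows of the genome. ACGTG, which every CACGTG contains, was found in 6 of the 16 windows, of 5 genes, and in 19.6% of all windows, and GCGTG in 8 of the 16, of 5 genes, and in 32.4% of all windows. Some windows of Eno1 and of Aldoa overlap and hold the same sites, so these window counts include repeats. The first pair of sequences below lies 145 and 48 bases before an Ldha start that is inside the span GENCODE gives the gene (chr7:46845647-46845676 and chr7:46845744-46845773). The second pair lies 150 and 131 bases before the Pgk1 start (chrX:106186938-106186967 and chrX:106186957-106186986), the latter with the motif as its reverse complement, and the last lies 78 bases before the Pdk1 start (chr2:71873134-71873163). All are on the plus strand, and capitals mark the motif.
Ldha, E-box farther from the start: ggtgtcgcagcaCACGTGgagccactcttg
Ldha, E-box nearer the start: cggcccagcctaCACGTGggttcccgcacg
Pgk1, ACGTG: gcgtcgtgcaggACGTGacaaatggaagta
Pgk1, ACGTG as its reverse complement: aaatggaagtagCACGTctcactagtctcg
Pdk1, GCGTG: ccgcctacatggGCGTGtctttaaccaggg
These matches describe the letters of the windows, and no binding was measured.

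Between 3144997 and 4785844 reads were counted per mouse, and 14618 genes passed the filter on low counts, the 10 among them. Values below are counts divided by DESeq2 size factors (normalized counts), and differences between genotypes are log2 fold changes of Bmal1iec-/- against control from edgeR, with p-values adjusted by Benjamini-Hochberg over all tested genes and called below 0.05. The deleted gene, listed as Arntl, varied from 15.8 to 283 normalized counts over the 24 control mice and from 84.9 to 180.4 over the 24 Bmal1iec-/- mice. The count sums reads over all exons and all cell types, including those outside the deleted part. Its target Nr1d1, which encodes the repressor REV-ERBα, was lower by a log2 fold change of -1.56 ± 0.13 (SE, edgeR adjusted p = 2.04e-13). Of 14 clock genes 11 were called, 4 higher and 7 lower, where 12% of all tested genes were called.

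Libraries SV384 and SV385, both Bmal1iec-/- at CT1, stood apart. Arntl had 105 and 97.2 normalized counts in them against 171 and 180.4 in the other mice of the group, SV479 and SV480. SV385 held a sum of 1156 CPM (counts scaled to the library size) over 10 smooth muscle markers and 459.9 over the fibroblast markers, below every other mouse (from 4007 and from 1011), while its sum of 39455 over 12 epithelial markers lay within the range of controls, 31467 to 40364. At CT1, 24.7% of tested genes differed between genotypes over all 48 mice and 1.21% over the 46 mice without this pair. For every one of the glycolysis genes except Pfkp, SV384 and SV385 were the highest mice of their group. Results are therefore given over 48 mice, and many again over 46. A value given only over 48 mice can differ without this pair. The part of the tissue makeup of SV385 in these values was not tested. In bulk tissue, fewer cells of a type and less RNA per cell cannot be told apart.

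Per unit of transcript length (TPM, computed from the summed length of all exons), Aldoa was the highest of the 10 in control colon at 868 ± 122 (SD, n = 24), followed by Ldha at 805 ± 136 and Tpi1 at 587 ± 99.4. Pgk1 (419 ± 79.2), Gpi1 (297 ± 22.1), Eno1 (208 ± 33.3) and Pgam1 (117 ± 20.9) came next. Hk2 (54.2 ± 9.83) and Pfkp (47.4 ± 3.59), at the regulated early steps, were an order of magnitude below Aldoa, and the kinase Pdk1 (22.9 ± 5.46) was lowest. Within single control mice the order held for most neighbours, since Ldha exceeded Tpi1 in 24 of 24 mice and Pfkp exceeded Pdk1 in 24 of 24, but Aldoa exceeded Ldha in 21 and Hk2 exceeded Pfkp in 19, and of these neighbours only Pfkp and Pdk1 had ranges over mice that did not overlap. In Bmal1iec-/- colon the order was the same, with Pgk1 at 354 ± 36.9 closer to Gpi1 at 326 ± 24 and above it in 17 of 24 mice.

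Averaged over the day, 9 of the 10 genes had a positive estimate in Bmal1iec-/- colon and Pgk1 a negative one, over 48 and over 46 mice. With circadian time as a term, 4 of 10 were called, where 12% of all tested genes were called (10.5% over 46 mice, with the same 4 genes), and 3 of the 4 were higher (6.4% of all genes were called higher) and 1 lower (5.56%). The median log2 fold change of the 10 was 0.12 over 48 mice and 0.07 over 46, against 0.00 over all tested genes for 48 mice, and 0 of the 4 passed a fold change of 1.5 as well, which 1.35% of tested genes did. The genes called higher, Hk2, Gpi1 and Pfkp, encode the first 3 enzymes of the pathway, and Pgk1 was lower.

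Hk2 had a lowest, median and highest normalized count of 283, 394 and 566 in the 24 control mice and of 347, 486 and 729 in the 24 Bmal1iec-/- mice. Its log2 fold change was 0.32 ± 0.07 (SE, edgeR adjusted p = 0.000761), and 0.28 ± 0.06 over 46 mice. The genotypes overlapped at 4 of the 6 times. At CT5 the control mice had 297, 363, 368 and 369 and the Bmal1iec-/- mice 391, 489.7, 594 and 601, and at CT21 the values were 409.8, 443, 464 and 493 against 527, 559.6, 605 and 679.8. At these times every Bmal1iec-/- mouse was above every control mouse, yet neither difference was called (edgeR, adjusted p = 0.188 and 0.554). The mouse SV385 had the highest Hk2 value of all, and without it and SV384 the level at CT1 was 0.12 lower than in control on the log2 scale (-0.12 ± 0.18).

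Gpi1 ranged from 2068 to 2749 in control and from 2229 to 3436 in Bmal1iec-/- mice, with medians of 2352 and 2658. It was higher by 0.18 ± 0.04 (SE, log2, edgeR adjusted p = 0.00144), or 0.14 ± 0.03 over 46 mice, and no mouse of either genotype overlapped the other at CT1 (control at most 2176, Bmal1iec-/- at least 2538) and CT5 (at most 2415 against at least 2451). Pfkp had medians of 788 in control and 848 in Bmal1iec-/- mice within overlapping ranges of 654 to 898 and 673 to 1046. Its difference of 0.11 ± 0.03 (SE, log2, edgeR adjusted p = 0.0207) was the smallest of those called, stood at 0.10 ± 0.03 over 46 mice and was no longer called without the time term or without the filter on low counts (adjusted p = 0.0743 and 0.111, from 0.00996 to 1 over the settings tried).

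For the 6 genes that were not called, the estimates over 48 mice were 0.13 ± 0.05 for Aldoa, 0.10 ± 0.05 for Tpi1, 0.14 ± 0.06 for Pgam1, 0.09 ± 0.05 for Eno1, 0.13 ± 0.05 for Ldha and 0.03 ± 0.06 for Pdk1 (SE, log2). Without SV384 and SV385 the estimates of the first 5 were smaller, from 0.03 for Tpi1 to 0.08 for Pgam1, and Pdk1 stood at 0.04. The sum of smooth muscle markers was also lower in Bmal1iec-/- colon, with a median of 5018 CPM against 5757 in control (ranges 1156 to 6174 and 4456 to 6705), and all 10 of these markers had a negative log2 fold change, of which 1 was called. All 8 fibroblast and all 8 endothelial markers were negative too, with 1 and 2 called. Of the 12 epithelial markers, 5 were called higher and 1 lower. Their sum had a lower median in Bmal1iec-/- colon, 34627.5 CPM against 35855.3 in control (ranges 28512 to 42461 and 31467 to 40364). Over 46 mice 3 epithelial markers were called higher and 2 lower, and 3 smooth muscle, 2 fibroblast and 2 endothelial markers were called lower. No marker of the smooth muscle and epithelial lists was at 0 in all mice. Their part in the differences of the glycolysis genes was not tested.

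**Figure D1:**
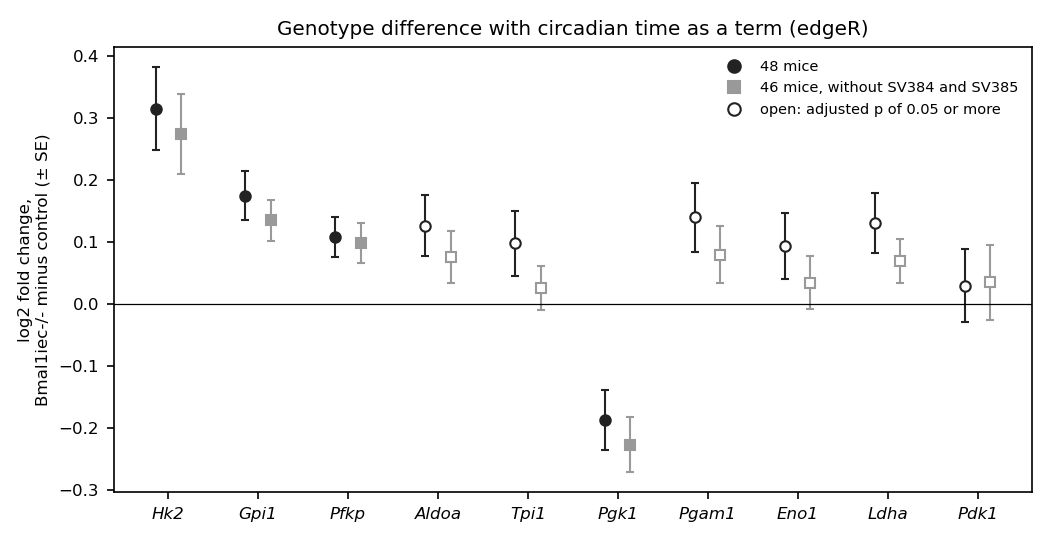
Log2 fold change of each of the 10 genes (vertical axis, Bmal1iec-/- minus control, error bars are SE from edgeR) over 48 mice (black circles) and over the 46 without SV384 and SV385 (grey squares), with filled symbols where the adjusted p is below 0.05. Hk2, Gpi1 and Pfkp lie above 0 and Pgk1 below it in both sets, at 0.32, 0.18, 0.11 and -0.19 over 48 mice.

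In control colon, most of the 10 genes followed the time of day. JTK_cycle is a rank test for 24 h rhythms whose adjusted p corrects each gene for the 12 phases tried. It called 8 of 10, and 23.3% of 32527 genes with at least 1 count, many of which failed the filter on low counts. An edgeR test of 24 h cosine and sine terms, over genes past such a filter in control mice, called 8 of 10 and 7216 of 14221 genes. The glycolytic enzymes and Ldha peaked around the onset and middle of the circadian night. Aldoa peaked at CT13 (JTK_cycle adjusted p = 7.28e-07), Ldha, Tpi1, Pgam1 and Gpi1 at CT15 (2.28e-08, 2.45e-06, 1.16e-04 and 0.00636) and Pgk1 and Eno1 at CT17 (2.71e-07 and 0.00101). Pdk1 ran in the opposite phase, with its peak at CT5 (6.32e-06). Hk2 and Pfkp, at the early regulated steps, were not called (0.138 and 0.133).

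The size of these rhythms was described with a 24 h cosine fitted to the normalized counts. Relative to its mean level, the amplitude in control was 28.0% for Pdk1, 25.1% for Pgk1, 22.8% for Ldha, 22.5% for Tpi1, 19.7% for Pgam1, 19.0% for Eno1 and 18.4% for Aldoa, and it was 11.8%, 7.95% and 5.71% for Hk2, Gpi1 and Pfkp. From the lowest to the highest circadian time, the mean rose 1.64-fold for Ldha, 1.62-fold for Pgam1, 1.57-fold for Pgk1 and 1.52-fold for both Aldoa and Tpi1, without overlap between the mice at both times. For Pfkp the mice of both times overlapped (1.17-fold).

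With the times pooled into day (CT1, CT5 and CT9) and night (CT13, CT17 and CT21), 8 of 10 genes differed in control colon, where 35.8% of all tested genes did, 7 of them higher at night (17.5% of all genes) and Pdk1 lower (18.4%). The largest rises were 0.51 ± 0.06 for Pgk1, 0.46 ± 0.07 for Tpi1, 0.42 ± 0.07 for Ldha and 0.42 ± 0.08 for Pgam1 (SE, log2, night minus day), with edgeR adjusted p of 1.77e-08, 1.89e-06, 2.47e-06 and 2.19e-05. Pdk1 fell by 0.57 on the log2 scale (-0.57 ± 0.11, edgeR adjusted p = 3.21e-05). For Pgk1 and Pdk1 the night mice and day mice of control did not overlap at all, with 871 to 1083 by day and 1161 to 1497 at night for Pgk1, and 232 to 321 by day and 138 to 218 at night for Pdk1. The share of all tested genes without such overlap was not counted, so how common this is cannot be told.

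In Bmal1iec-/- colon, JTK_cycle called 5 of 10 genes, where it called 13.6% of all genes, namely Pdk1 (adjusted p = 4.18e-05), Tpi1 (0.00213), Pgam1 (0.00636), Pfkp (0.0122) and Pgk1 (0.0122). Over the 46 mice, where 13.8% of genes were called, Ldha was called as well (5.26e-05, against 0.0616 over 48, with a range of 5.26e-05 to 0.509 over the settings tried). After a Benjamini-Hochberg correction over all genes, 8 genes were called in control (15.3% of all genes) and 2 in Bmal1iec-/- mice (4.34%), Pdk1 and Tpi1. The edgeR cosine test in Bmal1iec-/- mice called 4 of 10, and 2930 of 14177 genes past the filter. Without SV384 and SV385 it called 6 of 10, and 3380 of 14645 genes. Of the night against day differences, 1 of 10 was called in Bmal1iec-/- colon, where 11.5% of all tested genes were. This was Pdk1, which fell by 0.31 (-0.31 ± 0.10, edgeR adjusted p = 0.0415), and over 46 mice, where 14.8% of genes were called, Tpi1 (0.24 ± 0.05) and Pgam1 (0.28 ± 0.07) were called higher at night besides it. A gene called in control and not in Bmal1iec-/- mice is not thereby shown to differ, so the rhythms were compared directly.

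**Figure D2:**
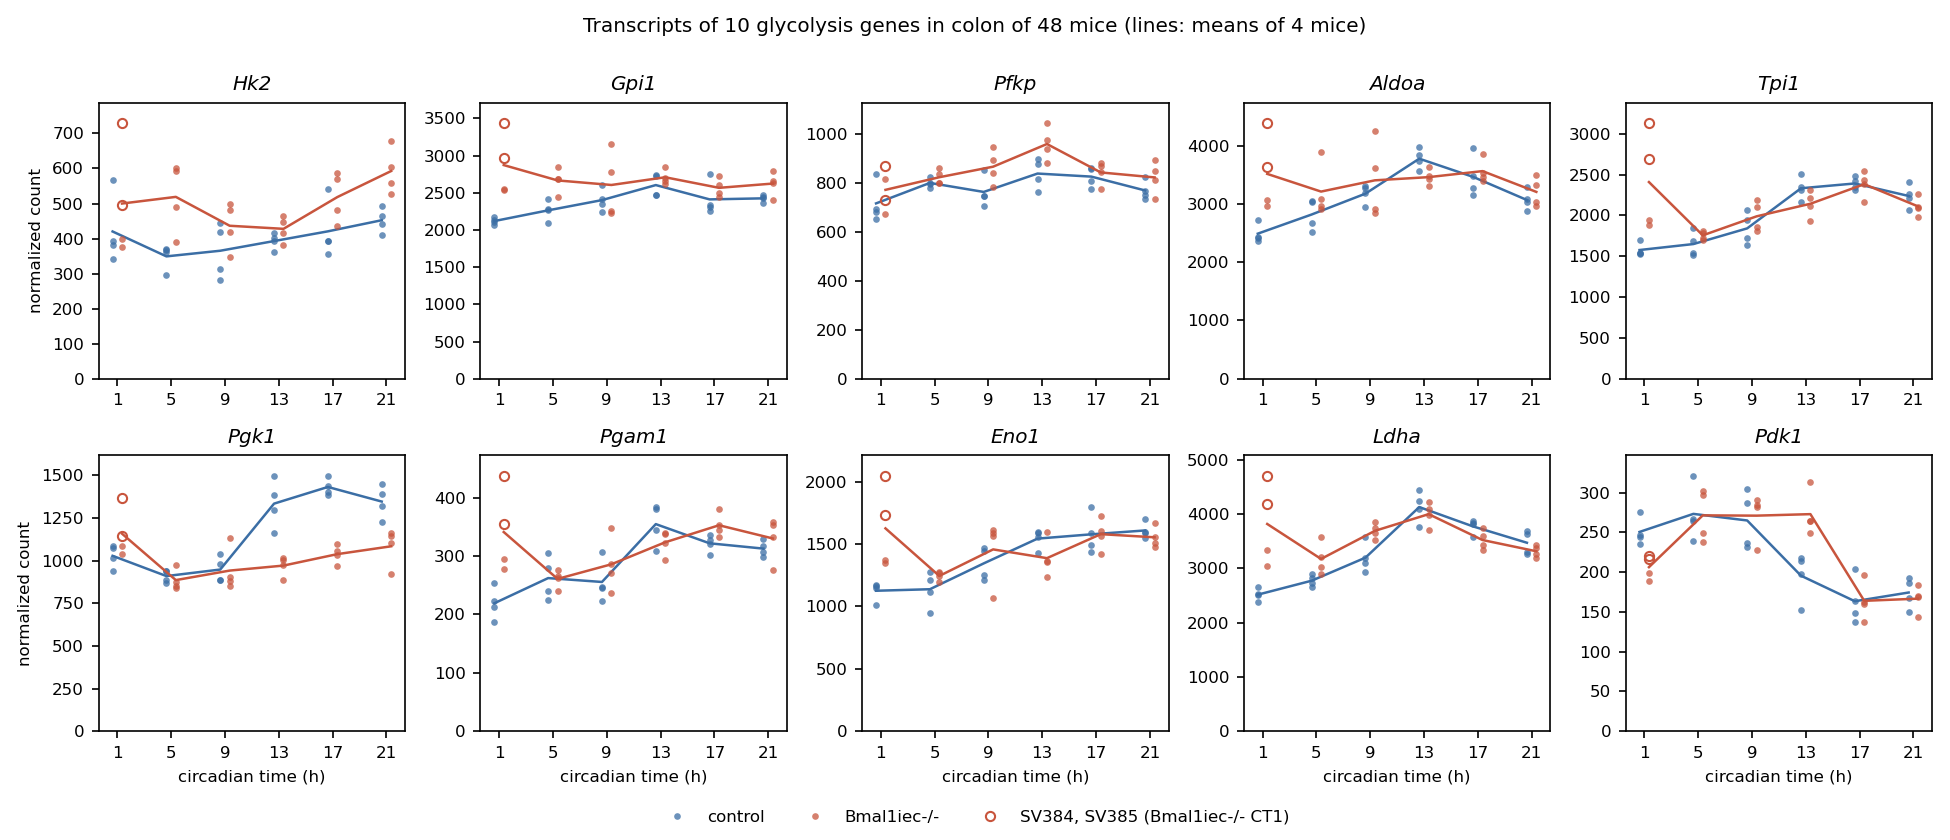
Normalized counts (vertical axes, from 0) of the 10 genes against circadian time in hours, with 1 point per mouse, lines through the means of 4 mice, control in blue and Bmal1iec-/- in red, and SV384 and SV385 as open circles. Pgk1 rises from 948 at CT9 to 1334 at CT13 in control and from 942 to 971 in Bmal1iec-/- mice, Pdk1 falls at CT13 in control and later in Bmal1iec-/- mice, and the open circles lie at the top of most panels at CT1.

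A test of the difference in rhythm between genotypes (cosine and sine terms by genotype, edgeR) called 2 of 10 genes, Pgk1 and Ldha, where 1.92% of all tested genes were called. Over 46 mice Pgk1 and Ldha were again the genes called, where 0.935% of genes were. With time as a factor in place of the cosine, Tpi1, Pgk1, Pgam1, Eno1 and Ldha were called over 48 mice, where 3.98% of genes were, and Pgk1 and Ldha over 46 mice, where 0.504% were.

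Pgk1 had the smallest adjusted p of the 10 genes for a difference in rhythm. In control mice its normalized counts were 942, 1013, 1074 and 1083 at CT1, 871, 888, 938 and 941 at CT5 and 887, 888, 977 and 1038 at CT9. They then stepped up to 1161, 1296, 1383 and 1495 at CT13, 1385, 1404, 1439 and 1497 at CT17 and 1227, 1321, 1388 and 1448 at CT21. All 12 control mice of the night were above all 12 of the day. Bmal1iec-/- mice had 1037, 1084, 1144 and 1366 at CT1, of which the upper values are those of SV384 and SV385, 841, 850.2, 875 and 977 at CT5 and 854, 879.6, 903 and 1129.7 at CT9. At night they had 887, 976, 1002 and 1018 at CT13, 969, 1031, 1057 and 1095 at CT17 and 924, 1105, 1143 and 1163 at CT21. No step at the day to night transition is seen in them, and at each of the 3 night times every Bmal1iec-/- mouse was below every control mouse, while by day the genotypes overlapped.

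The Pgk1 rhythm differed between genotypes with an edgeR adjusted p of 0.000889, which ranged from 1.87e-05 to 0.016 over the settings tried. Its cosine amplitude was 293 ± 24.7 (SE) normalized counts in control, with a peak at CT17.3, and 104 ± 31.2 in Bmal1iec-/- mice with a peak at CT21.4, or 87.4 ± 24.3 with a peak at CT19.9 over 46 mice. At single times the log2 fold change was -0.46 ± 0.09 at CT13 and -0.46 ± 0.09 at CT17 (SE, edgeR adjusted p = 0.00051 and 0.000952). At CT13 the sum of the 12 epithelial markers was also lower in every Bmal1iec-/- mouse (29432 to 32218 CPM) than in any control mouse (33547 to 39016), as was the sum of the 8 fibroblast markers (1011 to 1136 against 1139 to 1517), while at CT17 the epithelial sums overlapped (28512 to 39954 against 31467 to 39418). The part of these marker levels in the Pgk1 difference was not tested. At CT21 the Pgk1 log2 fold change was -0.31 ± 0.09, which was not called (edgeR adjusted p = 0.125), and at CT5 and CT9 it was -0.04 and -0.0044. At CT1 the Pgk1 mean was higher in Bmal1iec-/- mice, 1158 ± 145 against 1028 ± 65.4 normalized counts (SD, n = 4). Without SV384 and SV385 it was 1061 ± 32.8 (n = 2). The night minus day difference was smaller in Bmal1iec-/- mice by 0.46 ± 0.09 on the log2 scale (-0.46, edgeR adjusted p = 0.00759), and Pgk1 was the only one of the 10 called by this interaction, where 0.137% of all tested genes were. Averaged over times, the log2 fold change of Pgk1 was -0.19 ± 0.05 over 48 mice and -0.23 ± 0.04 over 46 (SE, edgeR adjusted p = 0.00708 and 0.000258), and without the time term it was -0.20 ± 0.07 and not called (0.0504, from 1.92e-04 to 1 over the settings tried).

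Ldha, which carries both E-boxes shown above, had its highest group mean at CT13 in both genotypes, 4126 ± 289 in control and 3996 ± 220 (SD, n = 4) in Bmal1iec-/- mice. Control mice had 2376, 2502, 2525 and 2654 at CT1, 2649, 2723, 2819 and 2893 at CT5 and 2924, 3099.9, 3183 and 3574 at CT9. They had 3751, 4086, 4231 and 4438 at CT13, 3567, 3817, 3825 and 3872 at CT17 and 3256, 3305, 3626 and 3693 at CT21. Its lowest control values were thus those of the early day. In Bmal1iec-/- mice the values were 3050.3, 3329.5, 4179 and 4702 at CT1, the upper values again from SV384 and SV385, 2892, 3016, 3202 and 3577 at CT5 and 3528, 3642, 3734 and 3850.4 at CT9. They were 3702, 3973, 4093 and 4217 at CT13, 3330.1, 3421, 3592 and 3737 at CT17 and 3190.4, 3257, 3381 and 3424 at CT21. At night the genotypes overlapped at every time, and at CT1 every Bmal1iec-/- mouse, with or without that pair, was above every control mouse.

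The Ldha rhythm differed between genotypes with an edgeR adjusted p of 0.0126, and from 0.00125 to 0.0435 over the settings tried. Its amplitude was 754 ± 71.7 (SE) normalized counts in control with a peak at CT14.9, 181 ± 124 in Bmal1iec-/- mice and 412 ± 68.2 with a peak at CT12.9 without SV384 and SV385. The difference at CT1 was 0.60 ± 0.09 over 48 mice and 0.33 ± 0.08 over 46 (SE, log2, edgeR adjusted p = 9.47e-06 and 0.0293), and at CT13, CT17 and CT21 it was -0.05, -0.10 and -0.07.

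**Figure D3:**
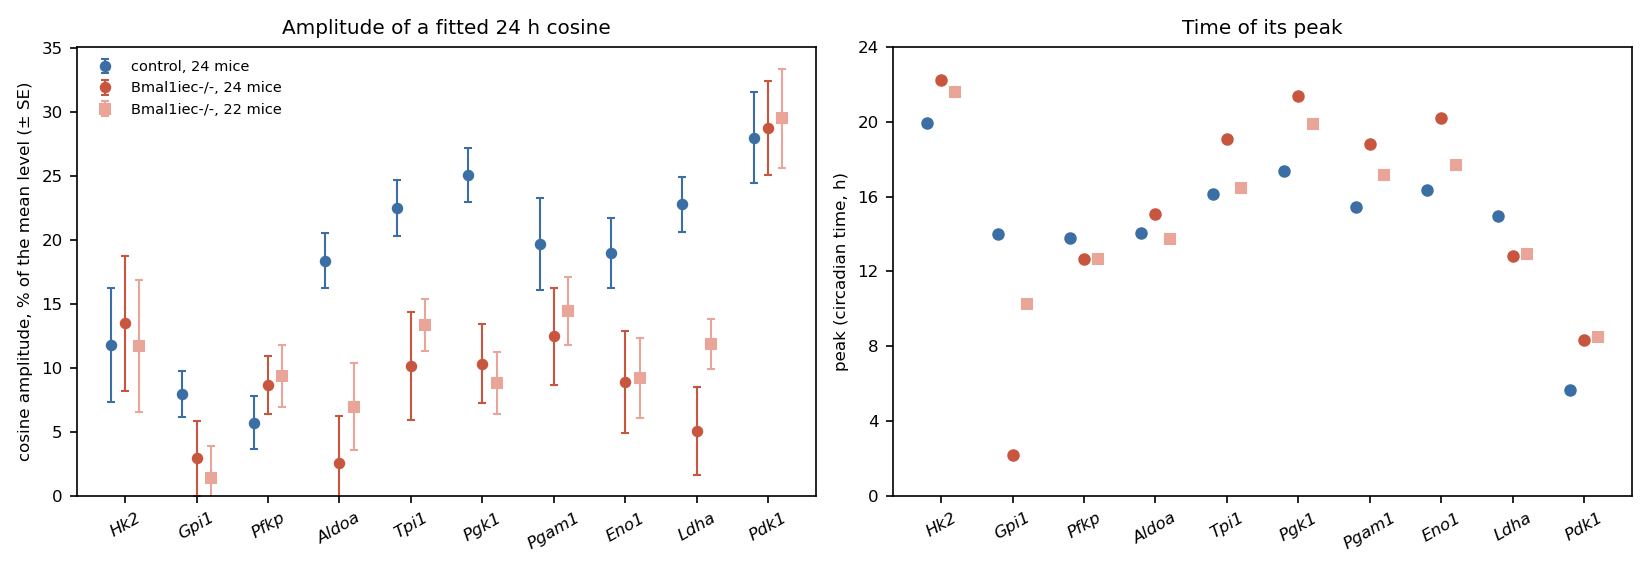
Amplitude of the fitted 24 h cosine as a percent of the mean level with its SE (left) and the circadian time of its peak in hours (right, an axis that wraps from 24 to 0) for each gene, in 24 control mice (blue circles), 24 Bmal1iec-/- mice (red circles) and 22 Bmal1iec-/- mice without SV384 and SV385 (pale squares). The amplitude of Pgk1 is 25.1% in control and 10.3% in Bmal1iec-/- mice and that of Pdk1 28.0% and 28.8%, with peaks of Pdk1 at CT5.64 and CT8.3. Peaks of genes with small amplitudes, such as Gpi1 in Bmal1iec-/- mice (2.91%), are poorly set, and error bars end at 0.

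Pdk1 had a rhythm in both genotypes, and its mean fell between CT9 and CT13 in control and between CT13 and CT17 in Bmal1iec-/- mice. Control mice had 235, 244, 247 and 275 normalized counts at CT1, 239.6, 265, 267 and 321 at CT5 and 232, 236, 287 and 304 at CT9. They fell to 152, 198, 214 and 218 at CT13, 138, 149, 164 and 203 at CT17 and 150.5, 168, 187 and 192 at CT21. Every control mouse at CT13 was thus below every one of the day. Bmal1iec-/- mice had 189, 199, 216 and 221 at CT1, 237, 249, 296 and 302 at CT5 and 228, 282, 284 and 290.2 at CT9. At CT13 they still had 249, 264, 264 and 314, and only later 137, 159.7, 162 and 197 at CT17 and 144, 169, 170.3 and 183 at CT21. At CT1 every Bmal1iec-/- mouse was below every control mouse, at CT13 every one was above, and at the other times the genotypes overlapped.

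The Pdk1 difference at CT13 was 0.48 ± 0.12 (SE, log2, edgeR adjusted p = 0.0155), and it was no longer called when SV448 or the control SV396 was left out (adjusted p up to 0.123). It went up while the epithelial and fibroblast marker sums at CT13 went down, as given for Pgk1, and their part in it was not tested. At CT1 it was -0.28 ± 0.12 (adjusted p = 0.0896). The cosine fit gave amplitudes of 61.7 ± 7.86 and 64.8 ± 8.23 (SE) normalized counts in control and Bmal1iec-/- mice, with peaks at CT5.64 and CT8.3. The difference in rhythm did not pass in edgeR (adjusted p = 0.0642, from 0.0332 to 0.186 over the settings tried), although DESeq2 called it (0.0332). The mean over the day was nearly equal in both genotypes (220.3 ± 51.6 and 225 ± 54.2, SD, n = 24 each), and the differences at CT1 and CT13 had opposite signs. Without SV384 and SV385 the Bmal1iec-/- mean at CT1 was 194 ± 7.51 (SD, n = 2), against 250 ± 17.1 (n = 4) in control.

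At single times, the calls among the 10 genes fell at CT1, CT13 and CT17. At CT1, 6 genes were called higher, Gpi1, Aldoa, Tpi1, Pgam1, Eno1 and Ldha, with log2 fold changes from 0.44 to 0.63, where 13.8% of all tested genes were called higher, and of these only Ldha remained called over 46 mice, where 0.617% were. Over 46 mice the estimates at CT1 were still positive for all 6, from 0.25 for Gpi1 to 0.37 for Pgam1. At CT13 there were 2 calls, Pgk1 and Pdk1 (3.58% of tested genes called), and at CT17 1, Pgk1 (0.876%). At CT5, CT9 and CT21 edgeR called 0 of 10 genes, where 0.376%, 1.46% and 0.328% of tested genes were called, and DESeq2 called 0 of 10 too. An unadjusted p under 0.05 was found in edgeR for 3, 2 and 2 genes, and the share of all tested genes at that looser threshold was not counted. Genotypes did not overlap for 7 genes at CT1 (19.4% of all tested genes), for Hk2 and Gpi1 at CT5 (4.09%), for 0 genes at CT9 (4.18%), for Pgk1 and Pdk1 at CT13 (12.9%), for Pgk1 at CT17 (4.73%) and for Hk2 and Pgk1 at CT21 (4.56%). Overlaps of the 10 genes were read from normalized counts, and the shares of all tested genes from log2 CPM.

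**Figure D4:**
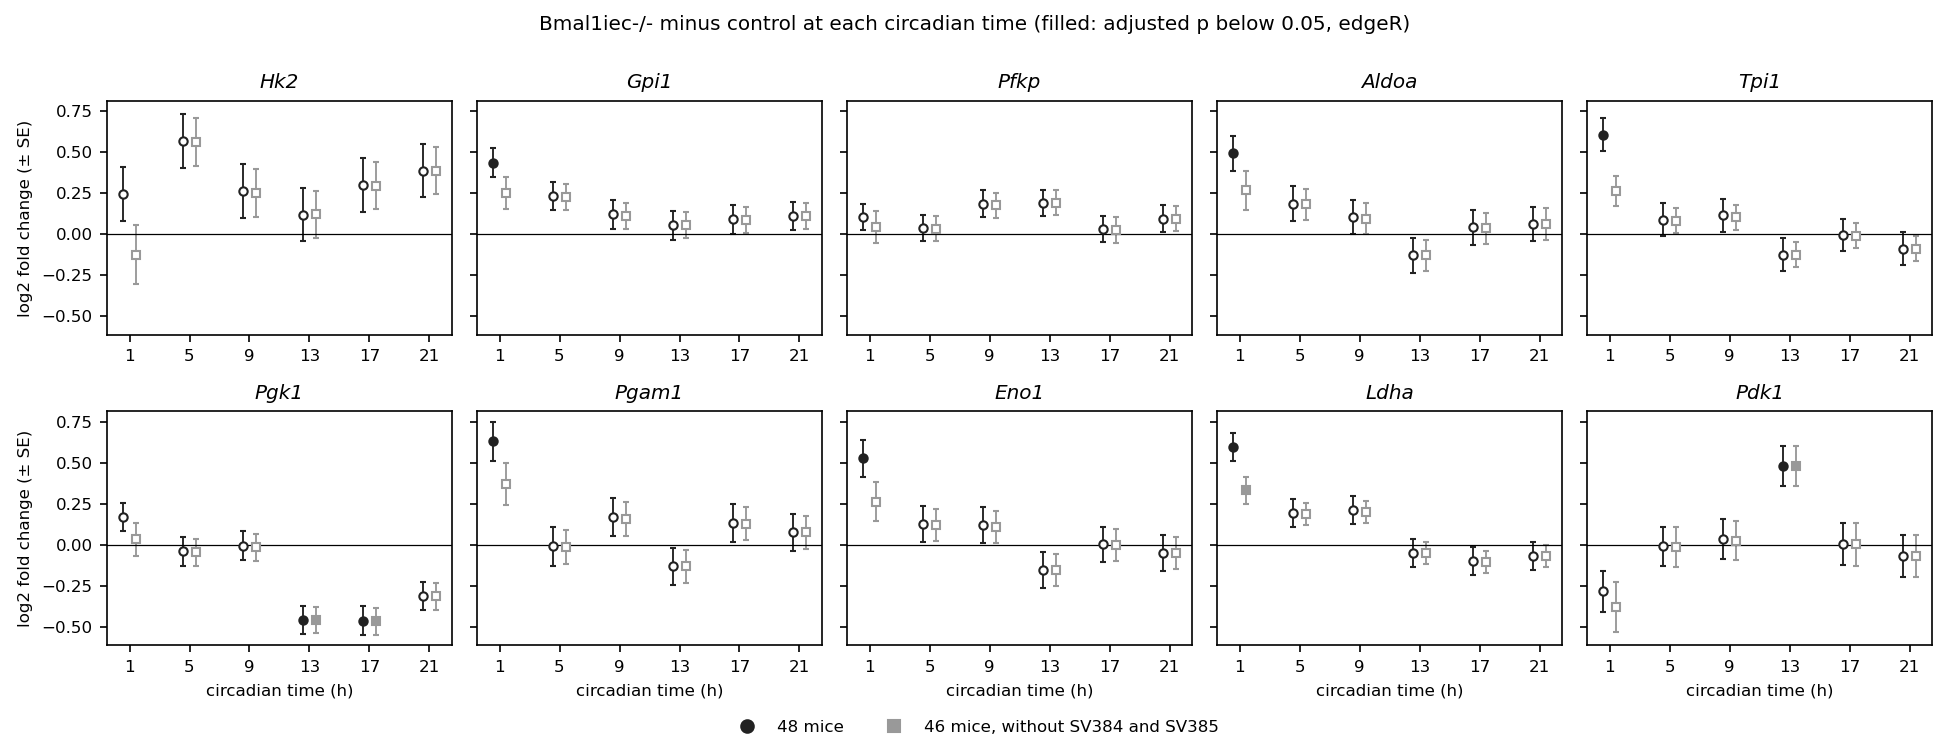
Log2 fold change of Bmal1iec-/- minus control (vertical axes, with SE from edgeR) at each circadian time (horizontal axes, hours) for each gene, over 48 mice (black circles) and 46 mice (grey squares), filled where the adjusted p is below 0.05. Pgk1 lies at -0.04 at CT5 and at -0.46 at CT13 and CT17, Pdk1 is at 0.48 at CT13, and the rises of Gpi1, Aldoa, Tpi1, Pgam1 and Eno1 at CT1 are smaller and open over 46 mice.

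Tpi1, Pgam1, Eno1 and Aldoa were lowest at CT1 in control and higher at night. Group means of Tpi1 in control rose from 1577 ± 84.9 at CT1 to 2392 ± 76.7 (SD, n = 4) at CT17, and in Bmal1iec-/- mice from 1757 ± 52.4 at CT5 to 2383 ± 158 at CT17, with 2409 ± 605 at CT1 where the values of SV384 and SV385, 2689 and 3129.5, stood above 1879 and 1938. Eno1 rose from 1125 ± 75.1 at CT1 to 1608 ± 62.4 at CT21 in control, and Pgam1 from 219 ± 28.1 at CT1 to 355 ± 34.9 at CT13. Aldoa rose from 2490.3 ± 164 at CT1 to 3777 ± 174 at CT13 in control, while its means in Bmal1iec-/- mice lay between 3207 ± 245 at CT21 and 3564 ± 201 at CT17 over 48 mice, with a lower mean of 3019 ± 70.0 (SD, n = 2) at CT1 without SV384 and SV385, and its amplitude was 2.51% of the mean level (6.97% over 46 mice) against 18.4% in control. The difference in rhythm of Aldoa was not called in edgeR (adjusted p = 0.0679) and was in DESeq2 (0.0284, with a range of 0.0284 to 0.667 over the settings tried).

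Over the 12 group means of log2 CPM, Pearson's r was 0.95 between Tpi1 and Eno1, 0.94 between Tpi1 and Pgam1 and 0.94 between Aldoa and Ldha. Pgk1 was less like them, with r of 0.69 with Tpi1 and 0.33 with Aldoa, and Pdk1 ran against Pgk1 (-0.78), Eno1 (-0.77) and Tpi1 (-0.75). Among the 5 tested genes most like Pgk1 by this measure were Atp6v1d (0.95), Akr1c12 (0.94), Smim3 (0.94) and Plet1 (0.93), and the 5 most like Pdk1 were Samd10 (0.98), Hmgn2 (0.97), Rilp (0.96), Srd5a3 (0.96) and Mrpl48 (0.96). Without SV384 and SV385, r of Rilp with Pdk1 was 0.89, the largest change among the pairs named. These values describe 12 groups that share genotypes and times and carry no test.

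The other genes of the pathway were read from the same tests. Of 21 other glycolytic enzymes 19 were tested and 3 were called, where 12% of all tested genes were. All 3 were lower, Hkdc1 (a hexokinase-like gene, -0.40 ± 0.08), Pgm2 (a phosphoglucomutase, -0.16 ± 0.04) and Aldoc (an aldolase, -0.30 ± 0.08; SE, log2), with edgeR adjusted p of 0.000131, 0.00505 and 0.00924 and a list median of -0.02. Gapdh (0.10 ± 0.05), Pkm (-0.05 ± 0.05), the muscle-type pyruvate kinase gene, and Pfkl (0.15 ± 0.06), the liver-type phosphofructokinase, were not called. Pkm had a rhythm in control, with a peak at CT13 (JTK_cycle adjusted p = 5.17e-08) and means of 1774 ± 104 at CT1 and 2798 ± 106 at CT13. Its difference in rhythm was called over 48 mice (edgeR adjusted p = 0.0204) and not over 46 (0.163). Of the 21, JTK_cycle called 11 in control and 7 in Bmal1iec-/- mice, where it called 23.3% and 13.6% of all genes. Over 46 mice it called 6 in Bmal1iec-/- mice (13.8% of all genes). The edgeR cosine test called 10 and 6 of 19 over 48 mice, where it called 7216 of 14221 and 2930 of 14177 genes past the filter. Pgm1, a phosphoglucomutase gene, was also called for a difference in rhythm over 48 mice, and over 46 mice edgeR called 0 of the 19, with 5 at an unadjusted p under 0.05.

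Among the genes that steer glycolysis and its reversal, 4 of 12 tested were called (12% of all tested genes), with a list median of -0.07, and 5 over 46 mice (10.5%), where Pfkfb4, of the same family as Pfkfb3, was lower too. Fbp2, a fructose bisphosphatase, was higher (0.26 ± 0.04), while Pck1, which makes phosphoenolpyruvate from oxaloacetate (-0.33 ± 0.07), Pfkfb3, which makes the activator of phosphofructokinase (-0.33 ± 0.09), and Pcx, pyruvate carboxylase (-0.37 ± 0.12), were lower (SE, log2), with edgeR adjusted p of 3.47e-06, 0.000936, 0.00969 and 0.0321. Of the transporters, 3 of 14 tested were called (12% of all tested genes), with a list median of -0.08, and 4 over 46 mice (10.5%), 1 higher and 3 lower. The lactate and butyrate carrier Slc16a1 was higher by 0.44 ± 0.05 and the fructose carrier Slc2a5 lower (-1.23 ± 0.17, edgeR adjusted p = 3.25e-09 and 3.05e-07), and Bsg, the chaperone of Slc16a1, was higher by 0.15 ± 0.04 (0.0175) over 48 mice and not called over 46. Over 46 mice Mpc1, a subunit of the mitochondrial pyruvate carrier (-0.17 ± 0.05), and Slc2a6, of the glucose carrier family (-0.40 ± 0.13), were lower (SE, log2, edgeR adjusted p = 0.0268 and 0.0409). The main glucose carrier Slc2a1 was at 0.04 ± 0.07.

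Downstream of Pdk1, 5 of 11 genes of the pyruvate dehydrogenase complex and its kinases and phosphatases were called over 48 mice, all higher, with a list median of 0.10, where 6.4% of all tested genes were called higher. They were the subunit genes Pdhx (0.23 ± 0.05), Pdha1 (0.11 ± 0.03), Dld (0.13 ± 0.04), Dlat (0.12 ± 0.04) and Pdhb (0.10 ± 0.03; SE, log2), with edgeR adjusted p from 0.000567 to 0.0266, and over 46 mice 2 of 11 were called, Pdhx and Pdha1, where 10.5% of all tested genes were. The other kinases Pdk2 (0.09 ± 0.05), Pdk3 (-0.07 ± 0.05) and Pdk4 (0.44 ± 0.16) were not called (edgeR adjusted p = 0.205, 0.466 and 0.0532), although Pdk4 was called by DESeq2 (0.0467) and by edgeR without the filter on low counts (0.0118), with adjusted p from 0.0118 to 1 over the settings tried. Pdk3 peaked at CT19 and Pdk4 at CT21 in control (JTK_cycle adjusted p = 5.96e-06 and 0.00269), away from the CT5 peak of Pdk1.

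Of 24 genes of the hypoxia-inducible factors and other hypoxia genes, 7 were called (12% of all tested genes), 2 higher and 5 lower (6.4% and 5.56%), with a list median of -0.06. Over 46 mice 8 were called (10.5% of all tested genes), 2 higher and 6 lower. Hif1a, which encodes the regulated subunit of HIF-1 (-0.27 ± 0.06), Vegfa, a growth factor of vessels (-0.34 ± 0.05), Bnip3, a gene of mitochondrial turnover (-0.34 ± 0.07), and P4ha2, a collagen prolyl hydroxylase (-0.36 ± 0.09), were lower (SE, log2), with edgeR adjusted p of 0.00187, 8.13e-07, 0.000969 and 0.00291. Higd1a (0.19 ± 0.05) and Ankrd37 (0.79 ± 0.22) were higher (0.00777 and 0.0114), and like Vegfa, Bnip3 and P4ha2 they are known HIF-1 targets. In control colon 18 of the 24 had a rhythm by JTK_cycle and in Bmal1iec-/- colon 12, where 23.3% and 13.6% of all genes did, and Hif1a had none in either (adjusted p = 0.102 and 1). The edgeR cosine test called 17 and 8 of the 24, where it called 7216 of 14221 and 2930 of 14177 genes past the filter.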

How the data were processed

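Colon RNA of 48 mice was sequenced. The authors trimmed paired reads with Trimmomatic 0.39, aligned them to mm10 with STAR 2.7.5c and counted reads on exons with featureCounts 1.4.6, at a mapping quality of at least 4. The deposited values are the authors' raw counts per gene, and all 48 columns were used. Symbols and positions came from GENCODE vM21 (55141 of 55401 identifiers matched). A second identifier that also bears the symbol Aldoa (129 counts in all) was left out. Retrocopies of the 10 genes held at most 1.19% of a gene's counts.

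Tests used edgeR 4.0.16 (TMM, filterByExpr, quasi-likelihood F tests, Benjamini-Hochberg) in R 4.3.3, with genotype and time, the 12 groups, cosine and sine terms by genotype, or genotype and period. DESeq2 1.42.0 gave size factors and alternative tests. JTK_cycle and least-squares cosines were run in Python 3.11.15 with numpy 2.4.6, pandas 2.3.3 and scipy 1.17.1, and plots in matplotlib 3.10.9. Other alternatives were other size factors, no filter, 46 mice and leaving out each mouse. On simulated counts of 14618 genes, a separate 200 genes were changed for each test. The genotype test recovered 99.5% of its 200, the CT13 test 81.5% and the rhythm difference test 87.5%. The planted changes were larger than those of the 10 genes, so these rates do not give the power for them. The labels give each mouse its own number, and no sequencing batch. P-values measure the spread between mice.

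The members, lists and tests were chosen with earlier results of these data known. Named genes were the 10 members, up to 6 genes of each other pathway list with the smallest adjusted p below 0.05 in the genotype test, a fixed set (Gapdh, Pkm, Pfkl, Pdk2, Pdk3, Pdk4, Slc2a1, Slc16a1, Hif1a, Arntl, Nr1d1 and Dbp) and the 5 genes most like Pgk1 and Pdk1. Pgm1, Pfkfb4, Mpc1 and Slc2a6 were named after their values were seen, and some genes these rules would name are not reported here.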

Additional observations from a re-analysis of the deposited data

Results flagged for a closer look

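The normalized count of 1 mouse stood far from the other 3 of its group, by Dixon's test at 95%, in 7 of the 120 combinations of a gene and a group, where chance flags about 1 in 20. These were Hk2 in control SV443 at CT5 (297, the others 363 to 369), Gpi1 in control SV438 at CT17 (2749, the others 2255 to 2333), Aldoa in Bmal1iec-/- SV439 at CT5 (3891, the others 2920.5 to 3080.3) and Tpi1 in control SV469 at CT1 (1703, the others 1524 to 1545). The others were Eno1 in Bmal1iec-/- SV418 at CT9 (1065, the others 1562 to 1615) and in control SV454 at CT1 (1014, the others 1149 to 1173), and Pdk1 in Bmal1iec-/- SV400 at CT9 (228, the others 282 to 290.2). SV384 and SV385 are not among them, since with both in a group of 4 neither stands alone.

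The rhythms of Pgk1 and Ldha differed between genotypes (edgeR adjusted p = 0.000889 and 0.0126). The genotype difference varied over the 6 times for Tpi1, Pgk1, Pgam1, Eno1 and Ldha (edgeR, 0.0079, 0.00164, 0.0354, 0.0467 and 0.00125), and over the 46 mice without SV384 and SV385 for Pgk1 and Ldha (0.016 and 0.0435). Adjusted p over the settings tried ranged from 1.87e-05 to 0.016 for Pgk1 and from 0.00125 to 0.0435 for Ldha. The night minus day difference of Pgk1 also differed between genotypes (edgeR adjusted p = 0.00759).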

How the results depend on the processing

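The count of 4 genes called for genotype became 2 without a time term (Pfkp and Pgk1 were lost), 3 without the filter on low counts (Pfkp was lost), 7 with the 12 groups averaged and 0 when tested against a fold change of 1.5 (edgeR, 0 at an unadjusted p under 0.05), and it was 4 or 5 when each mouse was left out. Over all 14618 tested genes, 1748 were called in the main test and 960 without a time term. With the 12 groups averaged 2088 were called, against a fold change of 1.5 44, and without the filter 1396 of 32527. At CT1 the 6 calls became 1 over 46 mice and 1 with only the 8 mice of that time, and were 6 without any single mouse. Of all tested genes, 3616 of 14618 were called at CT1, 183 of 15073 over 46 mice and 393 of 13237 with those 8. Without the filter on low counts the calls at CT5 went from 0 to 1, and those of night against day in Bmal1iec-/- mice from 1 to 0, which became 3 over 46 mice (14.8% of tested genes). Leaving out the filter also moved night against day in control from 8 to 7 calls and time as a factor by genotype from 5 to 7. Over all genes, these 4 comparisons called 55, 1685, 5239 and 582 of 14618 with the filter. Without it they called 198, 1111, 4699 and 1701 of 32527. At CT13 leaving out single mice left 1 or 2 calls. The 2 differences in rhythm became 5 with DESeq2 and 5 with time as a factor, and 2 to 5 without single mice, with 4 calls without SV478 or SV479 and 5 without SV442. Over all tested genes, 281 of 14618 were called in the main rhythm test, 457 of 13197 with DESeq2 and 582 of 14618 with time as a factor. The 5 rhythms in Bmal1iec-/- mice (13.6% of all genes) became 2 with a Benjamini-Hochberg correction (4.34%), and leaving out mice gave 5 or 6 there and 8 or 9 in control. The interaction of genotype and period called 2 genes with DESeq2, where it called 70 of 10083 genes, against 20 of 14618 in edgeR. Of the pyruvate dehydrogenase genes, 2 were called over 46 mice (10.5% of all tested genes) and 2 without the filter (1396 of 32527). Uncalled estimates turned sign for Hk2 at CT1 over 46 mice (-0.12), for night minus day of Gpi1 in Bmal1iec-/- mice over 46 mice (0.010) and for the interaction of Pfkp with DESeq2 (0.0013). The cause of these changes was not tested. The calls of Pgk1 for genotype, CT13, CT17 and rhythm held without any single mouse. Joint settings of cosine fits or time as a factor over 46 mice were chosen after seeing the data. At this depth a difference such as 0.11 for Pfkp rests on 24 mice a genotype, and single times with 4 mice can miss it. No paired analysis was possible because each mouse has its own number, shared by no other group.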
